A study of Homo sapiens with 4 samples.

Results

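The HOX genes examined here were all probe sets of the array that carry a single gene symbol made of HOXA, HOXB, HOXC or HOXD and a number. There were 27 of them, 1 for each of 27 genes, among the 32321 probe sets of the array, which name 18404 genes by a single symbol. They lay in all 4 HOX clusters, with 10 in HOXB on chromosome 17, 9 in HOXD on chromosome 2, 7 in HOXC on chromosome 12 and 1 (HOXA2) in HOXA on chromosome 7. The RefSeq gene table lists 39 genes of these clusters, and the other 12, among them the rest of HOXA, have no probe set named for them alone in the annotation used and were not analysed here. The data came from U87MG, an established human glioblastoma cell line, transfected with a control siRNA or with an siRNA against CASP2, the gene of the protease caspase-2. Each group held 2 arrays, called biological replicates in the sample labels, and per the labels all 4 cultures were grown in 1 kind of serum-containing medium. The siRNAs came from Dharmacon per the labels, and the only oligo pair that the methods list from this supplier has as its control a mutated form of the CASP2 oligo.

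HOX genes encode transcription factors that bind DNA through a homeodomain and give cells their position along the body axis. Within each cluster the genes stand in the order in which they are used from head to tail, with low numbers acting in the hindbrain and high numbers in the lower trunk and limbs. The normal forebrain is largely free of HOX expression, while glioblastomas are known to express members of several clusters. The clusters are held silent by Polycomb proteins, opened by Trithorax proteins and induced in the embryo by retinoic acid, and their products bind DNA together with PBX and MEIS cofactors.

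The silenced gene was checked first. CASP2 had log2 values of 10.74 and 10.69 on the control arrays and of 8.79 and 8.52 on the silenced arrays, a difference of -2.06 (SE 0.13, 95% confidence interval -2.40 to -1.72). Its unadjusted p from limma was 4.02e-05 and its adjusted p 0.9999, so even the silenced gene did not pass the adjusted test with these 4 arrays. Every value is a log2 value of Robust Multi-Array Average (RMA), and every difference is CASP2 siRNA minus control siRNA on that log2 scale. Differences were tested with limma over all 32321 probe sets, of which 0 passed a Benjamini-Hochberg adjusted p of 0.05 and 979 (3.03%) had an unadjusted p under 0.05. The 2 silenced arrays differed more from each other (SD of the difference 0.348 over all probe sets) than the 2 control arrays did (0.205), and over the HOX probe sets the same values were 0.314 and 0.161. Markers of the mesenchymal type of glioma were high, with VIM at percentile 99.6 and TGFBI at percentile 98.8 of all probe sets in the control cells, and of the 7 glial and neural stem markers 4 (GFAP, NES, OLIG2 and SLC1A3) lay above the silent-gene reference described next and 3 (S100B, AQP4 and SOX2) below it. Of the markers of other cell types, 4 of 5 for neurons and 2 of 5 for myeloid cells lay above that reference. For endothelium, 2 of 4 did. The brightest of them were CD68 of myeloid cells at percentile 98.3, SNAP25 of neurons at 73 and KDR of endothelium at 68.9. The leukocyte marker PTPRC, the myeloid markers AIF1 and ITGAM, the neuronal marker STMN2 and the endothelial markers VWF and CDH5 lay below it.

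The brightness of a probe set depends on its probes as well as on the RNA. An order of HOX levels, used below to choose genes to name or show, is therefore not read as an order of RNA amounts. Each HOX level was set against 2 common marks in the control cells. These were the median of all probe sets (log2 value 6.20) and the 95th percentile of the 350 probe sets for olfactory receptors (5.51), genes that are silent in most cells. Of the 27 HOX probe sets, 16 (59.3%) lay above the olfactory mark, beside 71.7% of the 19158 probe sets with 1 gene symbol, and 9 (33.3%) lay above the median, beside 62.1%. The same 9 also lay above the 99th percentile of the olfactory receptors (6.11). Markers of other cell types also passed the olfactory mark, as given above, and whether a level above it is expression was not tested. In the RefSeq table, promoters of olfactory receptor genes had a median of 37.7% G and C bases. The median was 58.0% for the 11 HOX promoters and 58.7% for all promoters. Promoter windows are not the sequences that the probes read. The base composition of the probes was not computed, and its part in the levels was not tested. In such bulk RNA, fewer expressing cells and less RNA per cell cannot be told apart.

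**Figure D1:**
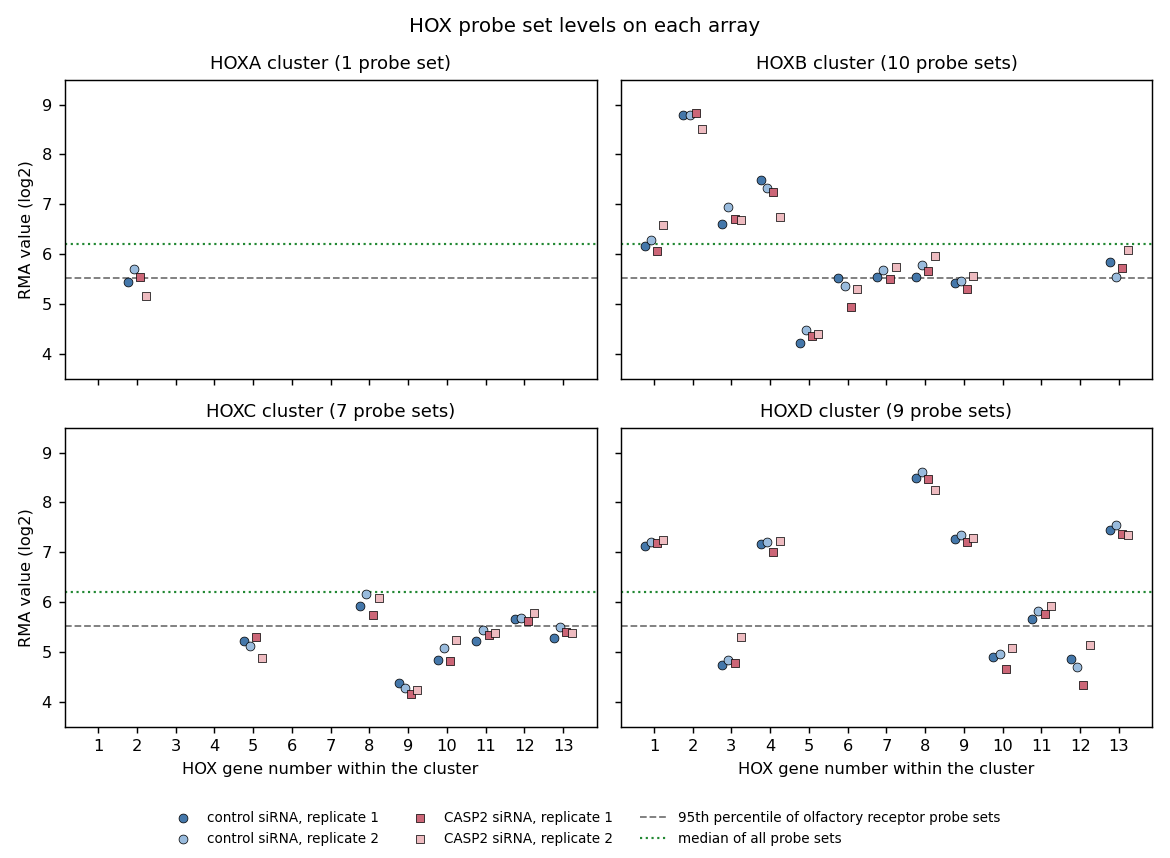
Log2 RMA value (y axis) of each HOX probe set on each of the 4 arrays, by the number of the gene in its cluster (x axis), with circles for control siRNA and squares for CASP2 siRNA. All 9 genes whose control mean lay above the median of all probe sets (dotted line, 6.20) belong to HOXB (HOXB1 to HOXB4) and HOXD (HOXD1, HOXD4, HOXD8, HOXD9 and HOXD13), and the dashed line marks the olfactory receptor percentile (5.51).

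In HOXB, the genes above the median of all probe sets were the 4 at the hindbrain end. HOXB2, which specifies hindbrain segments and their motor neurons, had log2 values of 8.80 and 8.79 on the control arrays and of 8.83 and 8.50 on the silenced arrays. Its control mean was at percentile 76.2 of all probe sets, and HOXB2 was the only HOX gene in the upper quartile. HOXB4, known for its part in the self-renewal of blood stem cells, was at 7.49 and 7.34 with the control siRNA and at 7.26 and 6.74 with the CASP2 siRNA. HOXB3, of the same hindbrain group, was at 6.59 and 6.95 with the control siRNA and at 6.71 and 6.68 with the CASP2 siRNA, so its silenced arrays lay between its control arrays. HOXB3 and HOXB4 overlap in the RefSeq table, so transcripts that cover both may add to either signal. HOXB1 had a control mean of 6.23, just above the median. Its control arrays, at 6.17 and 6.29, lay on either side of that median, so its place above it is within the spread between arrays. The 6 genes from HOXB5 to HOXB13 had control means from 4.34 for HOXB5 to 5.69 for HOXB13, all below the median, and HOXB7, HOXB8 and HOXB13 were above the olfactory mark.

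In HOXD, the genes above the median did not form 1 block. They were HOXD1, HOXD4, HOXD8, HOXD9 and HOXD13. HOXD8, of the trunk part of the cluster, had log2 values of 8.50 and 8.60 on the control arrays and of 8.48 and 8.24 on the silenced arrays. HOXD13, which patterns the digits, was at 7.45 and 7.55 with the control siRNA and at 7.36 and 7.35 with the CASP2 siRNA. HOXD9, of the same stretch of the cluster as HOXD8, was at 7.26 and 7.35 with the control siRNA and at 7.20 and 7.28 with the CASP2 siRNA. Control means were 7.17 for HOXD1 and 7.19 for HOXD4. Between them lay HOXD3, with a control mean of 4.79, and between HOXD9 and HOXD13 lay HOXD10, a gene of lumbar motor neurons (4.94), HOXD11 (5.74), which acts in the forearm and kidney, and HOXD12 (4.78). Of these 4, HOXD11 was above the olfactory mark. HOXD3 and HOXD4 overlap in the RefSeq table, so their signals may not be fully separate.

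The RefSeq promoters of HOXD8 and HOXD10 are shown because these genes are near neighbours on the same strand and lay on opposite sides of both marks. Both windows, from 250 bases before to 50 bases after the start, were read from the RefSeq table (build GRCh38.p14, plus strand), at chr2:176129455-176129754 for HOXD8 and chr2:176116528-176116827 for HOXD10, and the capitals mark CG dinucleotides.
HOXD8: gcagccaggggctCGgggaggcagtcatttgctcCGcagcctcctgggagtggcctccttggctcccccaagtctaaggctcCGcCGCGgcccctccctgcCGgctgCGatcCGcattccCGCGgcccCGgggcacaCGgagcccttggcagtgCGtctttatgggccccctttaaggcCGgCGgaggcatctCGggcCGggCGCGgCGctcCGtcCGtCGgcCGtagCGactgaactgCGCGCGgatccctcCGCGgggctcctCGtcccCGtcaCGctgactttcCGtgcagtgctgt
HOXD10: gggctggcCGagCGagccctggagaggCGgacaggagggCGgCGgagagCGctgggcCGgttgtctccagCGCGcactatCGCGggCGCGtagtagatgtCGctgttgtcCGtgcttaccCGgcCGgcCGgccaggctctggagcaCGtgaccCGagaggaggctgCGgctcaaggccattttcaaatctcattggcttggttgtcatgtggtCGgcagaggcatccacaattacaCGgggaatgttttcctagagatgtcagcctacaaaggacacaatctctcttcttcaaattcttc
The HOXD8 window holds 34 CG dinucleotides and the HOXD10 window 23, beside a median of 14 over all 35116 RefSeq promoters of this length. The 11 HOX members with a promoter in the table had a median of 23 and ranged from 4 for HOXD4 to 36 for HOXD1. Apart from HOXA2, HOXB1 and HOXC5 they were all HOXD genes. Both HOXD1 and HOXD4 lay above both marks, while HOXD3, with 25, lay below both. Whether the CG count goes with the level was not tested. The letters TAAT, the core that homeodomains bind, were searched on both strands. They occur in 9 of these 11 promoters (81.8%), but not in those of HOXD8 and HOXD13. The share was 50.2% of all promoters and 92.0% of those of olfactory receptor genes. The TATA box letters TATAAA, also on both strands, occur in 1 of the 11, HOXD13, beside 11.5% of all promoters. The letters AGGTCA, which nuclear receptors bind, occur in 0 of the 11, beside 13.8%. None of these matches is shown to be a bound site.

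In HOXC and HOXA, no probe set lay above the median of all probe sets. HOXC8, of the motor neurons that serve the arm, had log2 values of 5.92 and 6.17 with the control siRNA and of 5.73 and 6.08 with the CASP2 siRNA. HOXC12 was at 5.67 and 5.69 with the control siRNA and at 5.61 and 5.79 with the CASP2 siRNA, and these 2 were the only HOXC genes above the olfactory mark. HOXC13, a gene of hair and nail formation, was at 5.28 and 5.49 with the control siRNA and at 5.39 on both silenced arrays. The other HOXC probe sets were HOXC5, HOXC9, HOXC10 and HOXC11, with control means from 4.33 for HOXC9 to 5.33 for HOXC11. HOXC5 overlaps HOXC4 and HOXC6 in the RefSeq table. In the whole annotation 1 probe set carried several symbols of which at least 1 was a HOX gene, and it was left out. HOXA2, which patterns the second pharyngeal arch, was at 5.44 and 5.70 with the control siRNA and at 5.54 and 5.17 with the CASP2 siRNA. It passed the olfactory mark of the array in 2 of 4 arrays, so its place above the mark is within the spread between arrays.

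The next question was whether silencing of CASP2 changed the HOX genes. With limma, 0 of the 27 passed the adjusted test, in which 0.0% of all probe sets passed, and 0 had an unadjusted p under 0.05, beside 3.03% of all probe sets. At the cutoffs named in the methods, more than 1.5-fold and an unadjusted p under 0.05, the count was 0 of 27, beside 0.693% of all probe sets (0.331% higher and 0.362% lower). The methods' t-test also gave 0 in each of these counts. Of the 27, 11 had a difference above 0 and 16 (59.3%) below, beside 49.3% of all probe sets below, and these counts were not tested. The differences ranged from -0.41 for HOXB4 to 0.26 for HOXD3, with a median of -0.042, beside a median of 0.0022 over all probe sets. The median of the absolute difference was 0.083, beside 0.086 over all probe sets. For 20 of the 27 (74.1%) the 95% confidence interval lay within a 1.5-fold change either way, beside 75.7% of all probe sets. For the other 7 a 1.5-fold change remained inside the interval in at least 1 direction, and these were HOXA2, HOXB1, HOXB4, HOXB6, HOXB13, HOXD3 and HOXD12. By position in the cluster, the median difference was -0.072 for the 8 genes numbered 1 to 4, -0.083 for the 7 numbered 5 to 8 and -0.0062 for the 12 numbered 9 to 13, and these were not tested against each other.

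**Figure D2:**
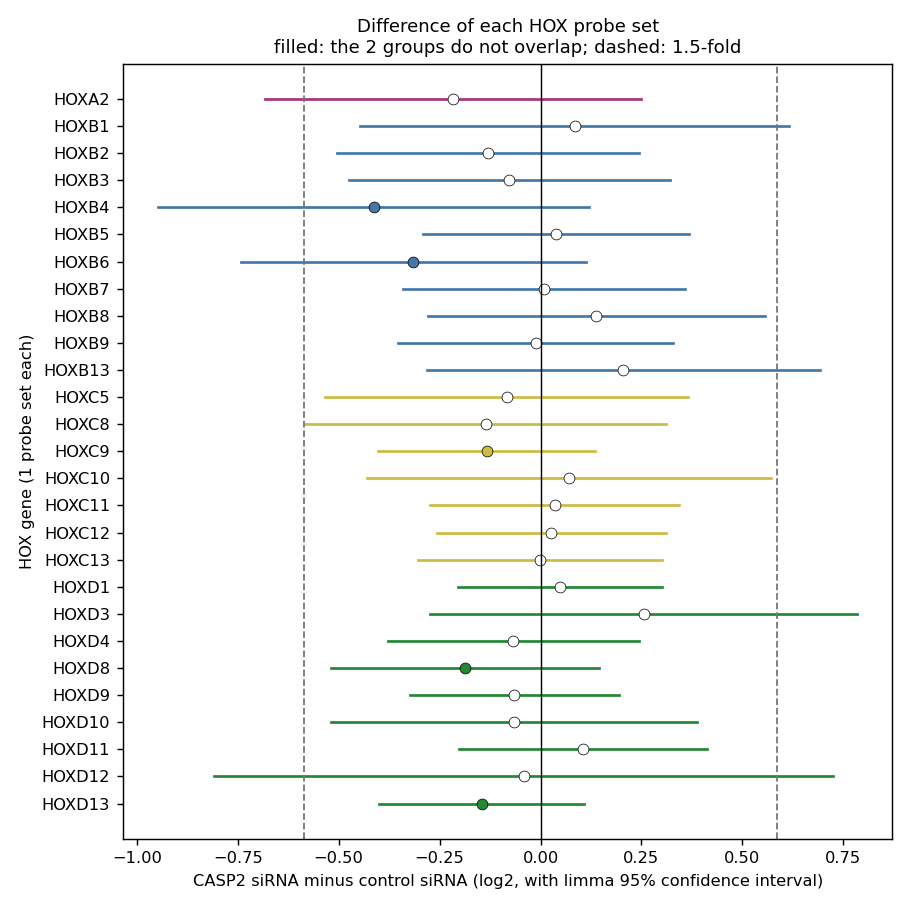
Difference of each HOX probe set (x axis, CASP2 siRNA minus control siRNA on the log2 scale) with its limma 95% confidence interval, by gene (y axis), in cluster order. Every interval includes 0, and the filled points are the 5 genes whose silenced arrays both lay below both control arrays.

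In 5 HOX probe sets (18.5%) both silenced arrays lay below both control arrays, and in 0 both lay above. Of all probe sets 15.1% were lower and 14.5% higher in this sense, 29.6% in either direction. The largest difference was that of HOXB4, whose silenced arrays lay 0.16 and 0.67 below the control mean (difference -0.41, SE 0.20, 95% confidence interval -0.95 to 0.12), or 1.33-fold. Its size rested on the second silenced array. With a silenced array left out, the other is assumed to vary like the control pair, which alone gives the spread. Without CASP2 siRNA replicate 1 the difference was -0.67, with an unadjusted p of 0.00463 and a limma adjusted p of 0.202, past the thresholds of the study. In that fit 3.06% of all probe sets passed those thresholds and 19.4% had an unadjusted p under 0.05. Without CASP2 siRNA replicate 2 the difference was -0.16. HOXB6, a trunk gene of the same cluster with a mean below the olfactory mark, had log2 values of 5.52 and 5.35 with the control siRNA and of 4.94 and 5.30 with the CASP2 siRNA. Its difference was -0.31 (SE 0.16, interval -0.74 to 0.11), and here the first silenced array lay farther from the controls. It was -0.50 without CASP2 siRNA replicate 2, with an unadjusted p of 0.0142 and a limma adjusted p of 0.4278, in a fit where 10.9% of all probe sets had an unadjusted p under 0.05. Without replicate 1 it was -0.13.

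The other 3 differed less. HOXD8 had a difference of -0.19 (SE 0.12, interval -0.52 to 0.14), which was -0.31 without CASP2 siRNA replicate 1 and -0.069 without replicate 2. HOXD13 had one of -0.15 (SE 0.095, interval -0.40 to 0.11), with silenced arrays that differed by 0.014. HOXC9, which sets the identity of thoracic motor neurons, was at 4.38 and 4.28 with the control siRNA and at 4.15 and 4.24 with the CASP2 siRNA (difference -0.13, SE 0.10, interval -0.40 to 0.14), below the olfactory mark on every array. Each of the 5 had an adjusted p of 0.9999 from limma.

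**Figure D3:**
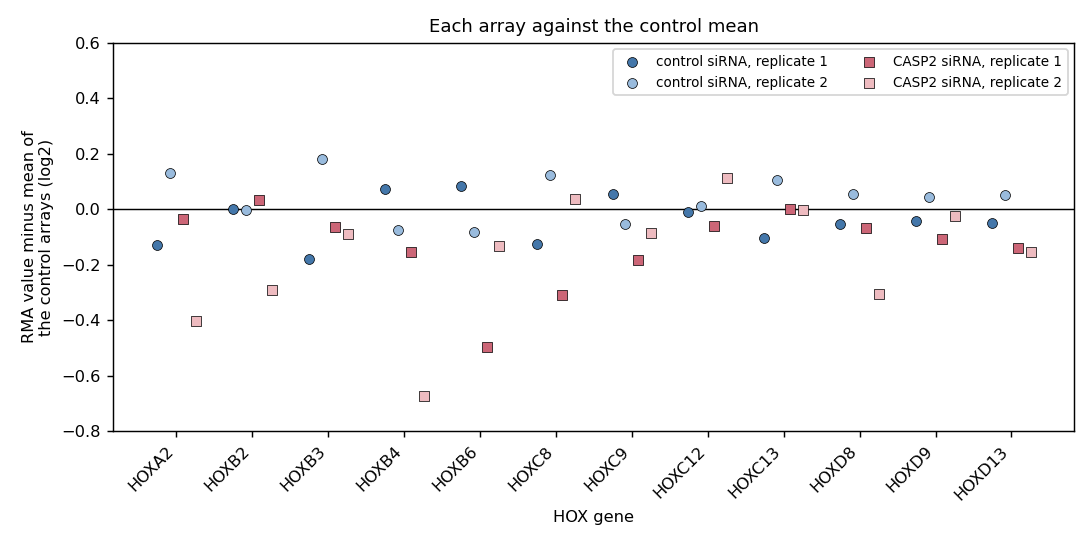
Deviation of each array from the control mean (y axis, log2 scale) for 12 HOX genes (x axis), the brightest of each cluster and those whose groups did not overlap, with circles for control siRNA and squares for CASP2 siRNA. The silenced arrays of HOXB4 lay at -0.16 and -0.67 and those of HOXD13 at -0.14 and -0.15.

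The groups of the remaining genes that were brightest in their cluster overlapped. Of these genes, HOXA2, HOXC8, HOXC12 and HOXC13 had control means below the median of all probe sets. HOXB2 had a difference of -0.13 (interval -0.50 to 0.24), with 1 silenced array above both controls and 1 below both. HOXB3 was at -0.077 (-0.48 to 0.32), HOXD9 at -0.065 (-0.32 to 0.19) and HOXA2 at -0.22 (-0.68 to 0.25). With an array left out, HOXD9 ranged from -0.11 to -0.021 and HOXA2 from -0.40 to -0.034. In HOXC the differences were -0.14 (-0.58 to 0.31) for HOXC8, 0.027 (-0.26 to 0.31) for HOXC12 and -0.0012 (-0.30 to 0.30) for HOXC13. Outside these genes, HOXD3 and HOXD12 were singled out after their values were seen. HOXD3 had the highest difference (0.26, -0.27 to 0.79), with a single array, CASP2 siRNA replicate 2 at 5.31, away from values of 4.75, 4.83 and 4.78 on the others. HOXD12 had the widest gap between silenced arrays, which lay at 4.34 and 5.14 on either side of control values of 4.85 and 4.70.

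The median HOX deviation from the control mean had opposite signs on the 2 silenced arrays. On CASP2 siRNA replicate 1, 19 of the 27 probe sets lay below the control mean, beside 16021 of all 32321, with a median of -0.069. On replicate 2, 16 lay above it, beside 16042 of all 32321, with a median of 0.052. Over all probe sets the medians were 0.0013 and -0.0017. The silenced pair was no farther apart over the HOX probe sets (SD of the difference 0.314) than over all probe sets (0.348). For 14 of the 27 the silenced arrays lay on opposite sides of the control mean, and the share of all probe sets that did so was not counted. With CASP2 siRNA replicate 1 left out, 13 HOX probe sets lay above both controls and 8 below, beside 39.3% and 40.2% of all probe sets. With replicate 2 left out these counts were 2 and 15, beside 37.6% and 37.0%. The median difference was 0.052 in the first case and -0.069 in the second, so its direction turned with the array that was kept. Without replicate 1, 7 of the 27 had an unadjusted limma p under 0.05, beside 19.4% of all probe sets, and without replicate 2 there were 3, beside 10.9%. HOXD12 was in both counts, at 0.36 in the first and -0.44 in the second. Over the 4 fits that leave out 1 array, 17 of the 27 had differences of both signs, 7 were below 0 and 3 above 0 throughout. These shares were not counted over all probe sets, so a change of sign is not read as a trait of the HOX genes.

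The noncoding RNAs of the clusters included 4 microRNA precursors with a probe set named for them. MIR10A stands in HOXB and MIR10B in HOXD, each near the gene numbered 4, while MIR196A1 stands in HOXB and MIR196A2 in HOXC, near the genes numbered 9. The microRNAs of both families are known to bind HOX messages. The 5′ arm sequences that RefSeq lists (build GRCh38.p14) are shown for that reason, with the seed, bases 2 to 8, in capitals. They lie at chr17:48579904-48579926 on the minus strand for miR-10a-5p, and for miR-196a-5p at chr17:48632532-48632553 on the minus strand (MIR196A1) and at chr12:53991762-53991783 on the plus strand (MIR196A2).
hsa-miR-10a-5p: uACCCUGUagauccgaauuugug
hsa-miR-196a-5p: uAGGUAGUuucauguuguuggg
The second sequence is the same for MIR196A1 and MIR196A2, which therefore share a seed. A probe set of a precursor does not measure the mature microRNA. The precursors had control means of 3.11 for MIR10A, 3.05 for MIR10B, 5.05 for MIR196A1 and 4.44 for MIR196A2, all below the olfactory mark. Of the 6 noncoding RNAs measured, of 23 listed, HOXB-AS3 alone passed that mark, at 6.34 and 6.31 with the control siRNA and 6.25 and 6.32 with the CASP2 siRNA. The list had a median difference of 0.0066, which ranged from -0.018 to 0.050 with an array left out. The differences of HOXA-AS2 (0.065, interval -0.19 to 0.32), HOXB-AS3 (-0.041, -0.29 to 0.20) and MIR196A1 (-0.15, -0.51 to 0.20) all had intervals that include 0.

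Genes that work with the HOX proteins, control their clusters or lie beside them were examined in 6 further lists, each gene by its brightest probe set. Over all 7 lists, the noncoding RNAs included, 3 of 103 genes (2.91%) had an unadjusted limma p under 0.05, beside 3.03% of all probe sets. Of the 103, 0 passed the adjusted test or the thresholds of the study, and the methods' t-test gave 0 of 103 with a p under 0.05. All 7 cofactors measured, of 9 listed, lay above the median of all probe sets, and their median difference was 0.015, with a range from -0.038 to 0.078 with an array left out. PBX3, which binds DNA together with HOX proteins, had a control mean of 10.76 and a difference of 0.015 (-0.26 to 0.29). MEIS2, a partner of the same kind, had 9.48 and -0.068 (-0.31 to 0.18), and PKNOX1 8.33 and -0.10 (-0.42 to 0.21).

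Of 21 Polycomb proteins and H3K27 demethylases, all above the median, 10 had a difference above 0 and 11 below, with a median of -0.0024 (from -0.025 to 0.039 with an array left out). EZH2, the methyltransferase that places the silencing H3K27 mark, had log2 values of 10.10 and 9.95 with the control siRNA and of 9.73 and 9.46 with the CASP2 siRNA. Both silenced arrays lay below both controls, with a difference of -0.44 (SE 0.14, interval -0.80 to -0.072), an unadjusted p of 0.0283 and a limma adjusted p of 0.9999. CBX7, a reader of that mark, was at -0.19 (-0.44 to 0.062), while the histone-binding subunits RBBP4 and RBBP7 were at -0.033 (-0.33 to 0.26) and 0.0033 (-0.24 to 0.25). Of 18 Trithorax and MLL complex genes, 7 had a difference above 0 and 11 below, with a median of -0.037, which was -0.011 without CASP2 siRNA replicate 1. KMT2C, a histone H3K4 methyltransferase, was at 0.18 (-0.060 to 0.42), AFF4, an elongation factor scaffold, at 0.11 (-0.13 to 0.35) and DPY30, a core subunit, at 0.029 (-0.21 to 0.27).

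Of 15 genes of the retinoic acid pathway, 10 had a difference above 0, beside 16375 of all 32321 probe sets, with a median of 0.084. This median was 0.038 without CASP2 siRNA replicate 1, 0.049 without replicate 2 and 0.047 with all probe sets of each gene. CRABP2, a retinoic acid binding protein, had log2 values of 8.97 and 8.99 with the control siRNA and of 9.22 and 9.24 with the CASP2 siRNA, a difference of 0.25 (SE 0.089, interval 0.010 to 0.49) with an unadjusted p of 0.0439 and a limma adjusted p of 0.9999. ALDH1A3, which makes retinoic acid, was at -0.095 (-0.40 to 0.21), DHRS3, which turns retinal back to retinol, at 0.11 (-0.20 to 0.41) and the receptor RXRG, below the olfactory mark, at 0.21 (-0.16 to 0.58). Of 18 genes beside the clusters, 12 had a difference above 0, beside the same 16375 of all 32321 probe sets. Their median was 0.039, which was 0.073 without control siRNA replicate 2. SMUG1, a uracil-DNA glycosylase next to HOXC, had 8.004 and 8.018 with the control siRNA and 7.673 and 7.462 with the CASP2 siRNA, a difference of -0.44 (SE 0.11, interval -0.75 to -0.14) with an unadjusted p of 0.0141 and a limma adjusted p of 0.9999. CBX5, a heterochromatin protein on the same side of HOXC, was at -0.097 (-0.35 to 0.16), SNX11, beyond HOXB, at 0.15 (-0.089 to 0.39) and LNPK, beyond HOXD, at 0.081 (-0.17 to 0.33). With either control array left out, EZH2, CRABP2 and SMUG1 all had an unadjusted p above 0.05, the lowest being 0.0721 for EZH2. Without CASP2 siRNA replicate 2, EZH2 had 0.0552 and CRABP2 0.0541, and with the replicate number as a block CRABP2 had 0.0988.

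**Figure D4:**
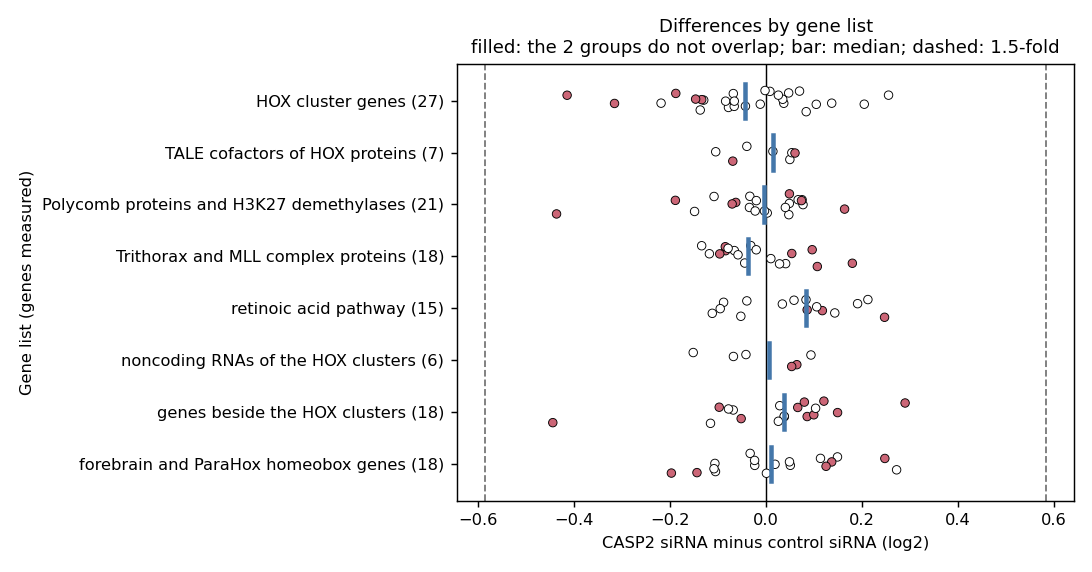
Difference of each gene (x axis, CASP2 siRNA minus control siRNA on the log2 scale) in the 27 HOX probe sets and the 7 other lists (y axis), with bars for the medians and filled points for genes whose groups did not overlap. No gene reached a 1.5-fold change (dashed lines), and the lowest values were those of SMUG1 (-0.44), EZH2 (-0.44) and HOXB4 (-0.41).

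Homeobox genes of the forebrain and of the ParaHox family, listed together with MNX1, lie outside the HOX clusters and were measured beside them. Of 18 measured, 13 (72.2%) lay above the olfactory mark in the control cells, beside 71.7% of the probe sets with 1 gene symbol. The others, OTX2, EMX2, SIX3, NKX2-1 and CDX4, lay below it. Above the median of all probe sets lay 12 of the 18, beside 62.1% of the probe sets with 1 symbol. Among the 12 were LHX2 of the cortex at 7.31, DLX2 of inhibitory neurons at 7.81 and MNX1 of motor neurons at 7.86. The median difference of the list was 0.011, and it ranged from -0.11 to 0.11 with an array left out. LHX2 was at -0.20 (-0.45 to 0.058), DLX2 at 0.25 (-0.13 to 0.63) and MNX1 at -0.023 (-0.38 to 0.33), and no gene of this list had an unadjusted limma p under 0.05.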

How the data were processed

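Total RNA of 4 U87MG cultures was hybridized to Affymetrix Human Gene 1.0 ST arrays. The authors summarized each array with RMA and deposited 1 log2 value for every probe set. Its version and genome build are not given in the sources used here. RMA equalizes probe values between arrays, which removes most of a shift common to all genes. Groups and replicate numbers came from the sample titles.

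Members were taken by symbol from the platform annotation, and list genes by symbols updated through gene IDs in RefSeq (19128 of 19158 probe sets with 1 symbol matched). The members and lists were chosen with earlier results of these data known. All 32321 probe sets were fitted with limma 3.58.1 in R 4.3.3 (lmFit, eBayes, two-sided, Benjamini-Hochberg; 2 residual and 2.47 prior degrees of freedom), and the script was tested on simulated data. Confidence intervals (95%) cover the spread between these arrays only, whose number limits the precision. With 2 arrays in each group, exact permutation (two-sided) reaches 0.333 at best, so none is quoted. Named by rule were the 3 HOX probe sets of each cluster with the highest mean over all arrays, the 8 with the largest differences among those whose groups did not overlap (5 existed), and in each list the 2 genes of smallest p and the 2 brightest. Other genes, among them the rest of the HOX genes, MIR10A, MIR10B, MIR196A2 and the cell type markers, were named outside the rule after their values were seen. Alternatives were the methods' t-test with its minimum standard deviation, a trended and robust eBayes prior, further quantile normalization, only bright or only named probe sets, other reference levels, each gene by 1 or by all of its probe sets, a replicate block, and leaving out each array.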

Additional observations from a re-analysis of the deposited data

How the results depend on the processing

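The count of 0 HOX probe sets past the thresholds of the study held in every alternative but one, the fit without CASP2 siRNA replicate 1, in which HOXB4 passed, so it ranged from 0 to 1 with an array left out. The count with an unadjusted p under 0.05 ranged from 0 to 7 with an array left out (1.1% to 19.4% of all probe sets). With the replicate number as a block it was 1 (HOXB4, limma unadjusted p = 0.0445, adjusted p = 1.0), beside 2.99% of all probe sets. Deviations of same-numbered arrays correlated at r = 0.020 over all probe sets, so the numbers were not taken as pairs. Probe sets with both silenced arrays above the controls ranged from 1 to 13 and those below from 5 to 15 with an array left out, where 3 arrays separate more easily (24.9% to 40.2% of all probe sets in 1 direction). Among bright probe sets 3 HOX genes were lower, and the share of all bright probe sets was not counted. Above the olfactory mark 3 of 16 HOX probe sets (18.8%) were lower, beside 19.1% of all probe sets with 1 symbol above it. The HOX median ranged from -0.080 to 0.052 with an array left out. The count of 16 above the olfactory mark was 9 with either the 99th percentile or the median as the mark.

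With an array left out, the difference of HOXB2 ranged from -0.29 to 0.034, of HOXB3 from -0.26 to 0.10, of HOXC8 from -0.31 to 0.036, of HOXC12 from -0.061 to 0.11 and of HOXC13 from -0.11 to 0.10, so each changed sign. In all, 17 of the 27 HOX genes changed sign among these fits, and the share of all probe sets that did so was not counted. Genes of the other lists with an unadjusted p under 0.05 ranged from 0 to 14 of 103 with an array left out. The 14 (13.6%) came without CASP2 siRNA replicate 1, where 19.4% of all probe sets passed. The methods' t-test gave 0, beside 0.309% of all probe sets. Over all probe sets, the thresholds of the study gave 107 higher and 117 lower. These became 35 and 37 with the methods' t-test, 22 and 33 among bright probe sets, 20 and 27 among probe sets with 1 symbol, and 118 to 414 and 157 to 592 with an array left out. Some of these fits held fewer probe sets or arrays, and the cause of the shifts was not tested. No probe set passed the adjusted test in any of these fits.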
